A study of Mus musculus with 40 samples.

Results

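The keratin genes and a fixed group of genes that mark the epithelial or the mesenchymal state were followed in the mpkCCD line, immortalized cells of the mouse renal collecting duct, after loss of transcription factors of the CREB family. Members were the rows of the expression table whose symbol is Krt followed by digits, together with Vim, Cdh2, Zeb1, Zeb2, Snai1, Snai2, Twist1, Acta2, Tagln, S100a4, Esrp1, Esrp2, Dsp, Jup, Pkp1, Pkp2, Pkp3, Cd44, Sox9 and Sox4. This gave 70 members, 50 keratins and 20 other genes, of 55414 genes in the table. All groups, controls included, were kept in transwells and given dDAVP, a vasopressin analogue, at 0.1 nM over 72 h before RNA sequencing. The 22 libraries analysed comprised 11 from unmodified control clones, 5 with the label ATF1-KO, 3 with ATF1/CREB1-KO and another 3 with ATF1/CREB1/CREM-KO. In the labels, the library numbers form 3 runs of consecutive numbers, which the labels do not call batches: control clones 1 to 5 stand beside ATF1-KO, control clones 6 to 8 beside ATF1/CREB1-KO, and control clones 9 to 11 beside ATF1/CREB1/CREM-KO. Each knockout was compared with the control clones of its own run. Whether a knockout was replicated in separate clones is not stated, so p-values measure the spread between these libraries, which may be technical. The 18 samples in which a factor was put back into the cells lacking all 3 factors were not analysed here.

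Keratins are the intermediate filament proteins of epithelial cells and assemble as pairs of a type I and a type II chain. Simple epithelia such as the collecting duct use KRT8 and KRT7 (type II) with KRT18 and KRT19 (type I). KRT20, also type I, is a keratin of intestinal and urothelial surface cells. KRT5 and KRT14 belong to basal cells of stratified epithelia and KRT10 to differentiating epidermis. Filaments are anchored at desmosomes through the plaque proteins desmoplakin (Dsp), plakoglobin (Jup) and the plakophilins (Pkp1 to Pkp3). When epithelial cells turn mesenchymal, factors of the SNAI, ZEB and TWIST families repress epithelial genes, N-cadherin (Cdh2) and vimentin (Vim) appear, and the splicing regulators ESRP1 and ESRP2 are lost. Kidney tubule cells turn on CD44 and SOX9, and often SOX4, after injury.

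The values are TPM, a share of all transcripts corrected for transcript length in which sequencing depth cannot be read. Genes above 0 numbered 17296 to 20703 in a library. Collecting duct markers were present in every library, among them Aqp2 (15.1 to 2351 TPM), Avpr2, Gata3, Tfcp2l1 and Scnn1a, although Elf5 and Scnn1b, also of the principal cell list, stayed at or below 2.67 TPM. Defining markers of fibroblasts (Col1a2 and Lum), endothelium (Cdh5) and macrophages (Adgre1 and Lyz2) were listed at 0 in all 22 libraries. In the same fibroblast and endothelial lists, Dcn reached 1.95 TPM, Col1a1 1.05 TPM and Pecam1 0.52 TPM. The proximal tubule gene Lrp2 was at 1.1 to 25.2 TPM. Other genes of the leukocyte list were present, Csf1r at 3.83 to 47.9 TPM, Cd68 at 1.11 to 13.1 TPM and Ptprc at 0.02 to 3.54 TPM. The intercalated cell markers Foxi1 and Slc26a4 reached at most 0.05 TPM, while Atp6v1b1 lay between 14.4 and 103 TPM and the urothelial gene Upk1a between 97.6 and 657 TPM. The targeted transcripts check the labels only in part, since a gene-level TPM cannot show an edit. Atf1 was at 17.5 to 37.8 TPM in ATF1-KO against 37.8 to 48.9 TPM in control clones 1 to 5. In ATF1/CREB1-KO it overlapped control clones 6 to 8, at 15.1 to 23.7 TPM against 23.3 to 26.2 TPM. It was at 23.7 to 40.8 TPM in ATF1/CREB1/CREM-KO against 39.8 to 40.5 TPM in control clones 9 to 11. Creb1 was lower in all libraries labelled as lacking it than in the control clones of their run (2.72 to 3.86 against 4.98 to 6.69 TPM, and 18.2 to 19.4 against 35.9 to 39.0 TPM), and Crem was not lower in ATF1/CREB1/CREM-KO (26.0 to 33.8 against 20.0 to 24.9 TPM), so the knockout state rests on the labels. The second run stood apart in composition: ribosomal protein genes took 6.95 to 14.8% of all TPM there and 2.58 to 4.02% in the other 2 runs, so levels are compared within runs.

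Of the 70 members, 22 averaged 1 TPM or more over the 22 libraries, 43 never reached 1 TPM, and 10 were listed at 0 in every library. All 7 keratins of simple epithelia were among the expressed members, as were all 5 genes of the desmosomal plaque, both splicing regulators and all 3 progenitor and injury genes. Of the 16 keratins of stratified, basal or stressed epithelium in the table, only Krt10 averaged 1 TPM or more, and none of the 27 hair, inner root sheath and other keratins did. Krt5 and Krt14, the pair of basal cells, reached at most 0.16 and 0.12 TPM. Other keratins that passed 1 TPM in some library stayed low: Krt4 reached 3.12 TPM, Krt88 2.25 TPM, Krt17 1.87 TPM and Krt79 1.58 TPM. Krt13, listed at 0 in 20 of 22 libraries, reached 2.11 TPM in 1 library labelled ATF1-KO.

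**Figure D1:**
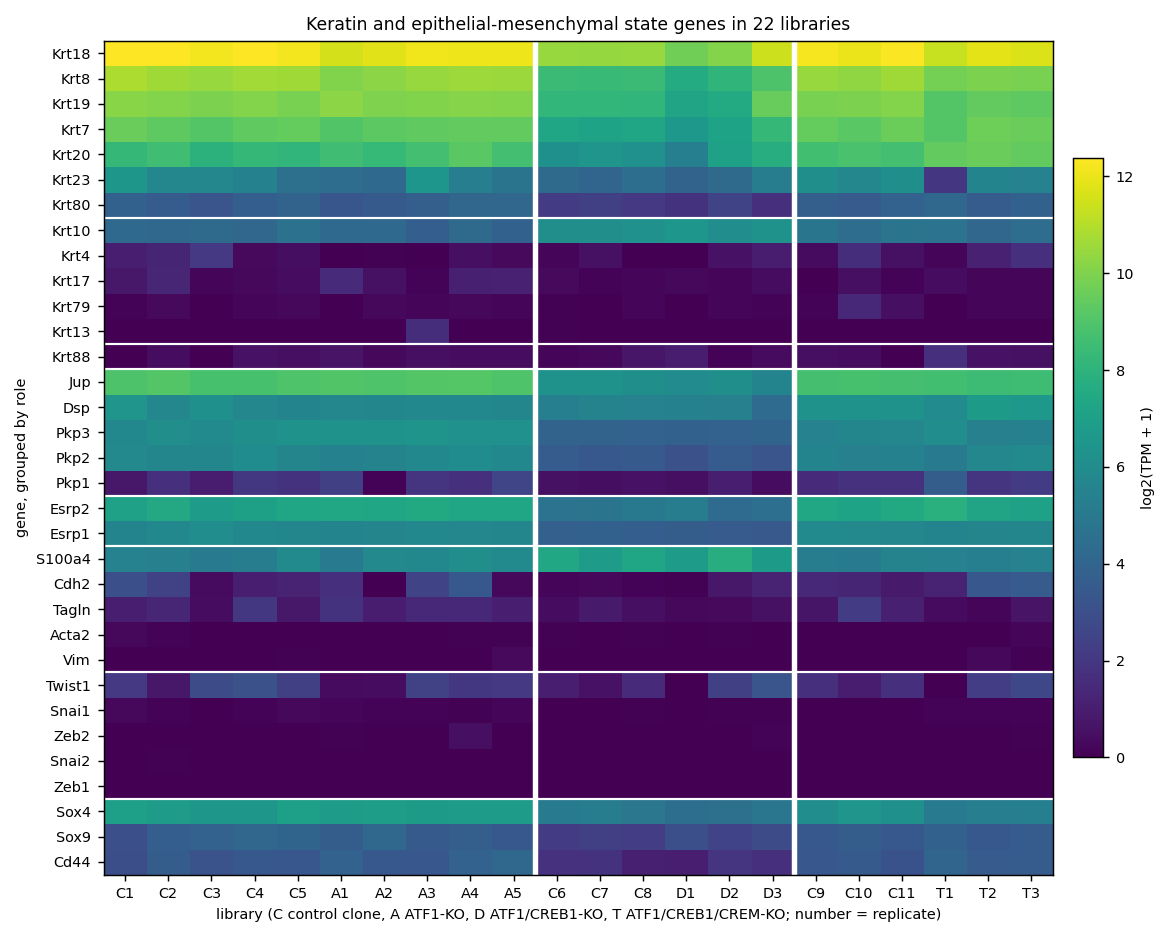
Colour gives log2(TPM + 1) for the members outside the keratin family and for each keratin that reached 1 TPM in any library (rows, grouped by role), in the 22 libraries (columns). White vertical lines separate the 3 runs of library numbers. Krt18, Krt8, Krt19, Krt7, Krt20 and Jup are the brightest rows, Zeb1, Zeb2, Snai1, Snai2, Vim and Acta2 are dark throughout, and most rows are darker in the second run except Krt10 and S100a4.

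Together, Krt18, Krt8, Krt19, Krt7 and Krt20 held 92.4 to 99.3% of all keratin TPM in each library. Per length, their order from high to low was Krt18, Krt8, Krt19, Krt7, Krt20 in all 11 control clone libraries. Krt18 was at 5339.8, 5289.7, 4578, 5252 and 4627 TPM in control clones 1 to 5, at 1435, 1373 and 1423 TPM in control clones 6 to 8, and at 4797, 4180.1 and 5162 TPM in control clones 9 to 11. The control clones of the second run were thus low without overlap, and so were Krt8, Krt19, Krt7 and Krt20 there. Krt8, the type II partner of Krt18, was at 1433 to 1869 TPM in control clones 1 to 5, at 339 to 344 TPM in control clones 6 to 8 and at 1288 to 1557 TPM in control clones 9 to 11. Krt10 went the other way, with 69.3 to 75.6 TPM in control clones 6 to 8 against 16.2 to 23.4 TPM in clones 1 to 5 and 20.2 to 26.9 TPM in clones 9 to 11. S100a4, a calcium-binding protein of motile cells, did so too, with 115 to 164 TPM in clones 6 to 8 and 34.5 to 58.9 TPM in the other control clones. All of these cells were unmodified, and what set the second run apart was not tested.

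The stretches of DNA before the transcription starts of 3 abundant keratins (Krt18, Krt8 and Krt7), and of Krt20 and Sox4, whose changes in ATF1/CREB1/CREM-KO are described further on, are shown because CREB-family proteins bind a short element, TGACGTCA, and SNAI and ZEB proteins bind the E-box CACCTG. Each is the 250 bases before the start, from RefSeq on GRCm38.p6, written 5′ to 3′ along the gene's own strand, with any CACCTG in capitals. Krt19 has no entry.
Krt18, chr15:102027966-102028215, plus strand: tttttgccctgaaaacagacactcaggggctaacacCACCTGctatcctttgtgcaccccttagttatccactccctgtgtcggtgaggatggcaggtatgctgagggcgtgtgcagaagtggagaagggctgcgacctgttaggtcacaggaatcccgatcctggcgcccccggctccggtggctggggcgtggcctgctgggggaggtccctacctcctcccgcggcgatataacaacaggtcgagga
Krt8, chr15:102004343-102004592, minus strand: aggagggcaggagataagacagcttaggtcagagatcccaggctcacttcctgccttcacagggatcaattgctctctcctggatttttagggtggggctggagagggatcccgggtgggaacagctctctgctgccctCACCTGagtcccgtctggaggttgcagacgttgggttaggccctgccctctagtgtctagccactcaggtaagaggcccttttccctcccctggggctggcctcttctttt
Krt7, chr15:101412153-101412402, plus strand: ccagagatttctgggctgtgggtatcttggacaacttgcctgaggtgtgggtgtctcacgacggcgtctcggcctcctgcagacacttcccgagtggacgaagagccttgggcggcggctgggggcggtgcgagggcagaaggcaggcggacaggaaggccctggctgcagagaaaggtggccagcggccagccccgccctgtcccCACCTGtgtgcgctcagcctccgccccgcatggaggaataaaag
Krt20, chr11:99438154-99438403, minus strand: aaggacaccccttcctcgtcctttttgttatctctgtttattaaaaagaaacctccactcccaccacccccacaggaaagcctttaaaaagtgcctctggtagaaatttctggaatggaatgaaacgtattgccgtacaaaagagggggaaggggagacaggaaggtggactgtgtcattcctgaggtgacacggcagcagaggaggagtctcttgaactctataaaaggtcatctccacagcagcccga
Sox4, chr13:28953700-28953949, minus strand: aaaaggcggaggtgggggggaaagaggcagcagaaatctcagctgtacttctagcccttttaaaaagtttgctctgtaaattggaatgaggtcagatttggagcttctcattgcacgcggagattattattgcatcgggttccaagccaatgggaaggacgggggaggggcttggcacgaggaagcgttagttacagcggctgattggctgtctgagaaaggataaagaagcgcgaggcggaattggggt
Krt8 and Krt18 are on one chromosome on opposite strands and are transcribed away from each other. Such windows were found for 45 of the 70 members and for 12 of the 22 averaging 1 TPM or more. Among these 12, the bases after the start did not match the opening of an annotated transcript for S100a4 and Jup. On either strand, TGACGTCA was in none of the 45 (1.55% of all 32851 windows hold it), and its first part TGACG, which every full element also contains, was in 7 of 45 (17.8% of all windows) but, of the 12 expressed members, only in Twist1. The AP-1 element TGANTCA was in 2 of the 45 and in none of the 12 (6.75% of all windows). CACCTG was in 15 of the 45 and in 5 of the 12, namely Krt7, Krt8, Krt10, Krt18 and Krt23 (17.2% of all windows). It began 44 bases before the start of Krt7, 111 before that of Krt8 and 214 before that of Krt18. A match describes letters and not a bound site, and a missing match says only that those letters are not in this window.

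Transcripts of the SNAI and ZEB members were nearly absent. Zeb1 was listed at 0 in all 22 libraries, Snai2 in 21 and Zeb2 in 15, and the highest values of Snai2, Snai1 and Zeb2 were 0.04, 0.21 and 0.42 TPM. Snai3 and Tcf4 are E-box binding factors that are not members and are named after their values were seen. Both were expressed, with group means of 0.713 to 3.97 and 5.96 to 30.5 TPM. Neither was called in a comparison that tested it, and Snai3 was too low to enter the own-run test of ATF1/CREB1-KO. Twist1, a basic helix-loop-helix factor, was the only one of the 5 transcription factors averaging 1 TPM or more, and it varied between libraries of the same group, from 0.72 to 7.49 TPM in control clones 1 to 5. Vimentin was listed at 0 in 17 of 22 libraries with a highest value of 0.24 TPM, and Acta2, smooth muscle actin, reached 0.20 TPM. Cdh2 also varied within groups, from 0.27 to 7.12 TPM in control clones 1 to 5 and from 0.02 to 9.78 TPM in ATF1-KO. None of Zeb1, Zeb2, Snai1, Snai2, Vim and Acta2 reached the mean of 1 TPM needed to enter a test in any comparison, in control clones or knockouts.

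In ATF1-KO no member passed the test. Differences were tested with limma on log2(TPM + 1) over every gene that averaged 1 TPM or more in the libraries compared, and a gene was called at a Benjamini-Hochberg adjusted p under 0.05. Of the 22 members tested 0 were called, as were 0.00% of all 13318 genes tested. At an unadjusted p under 0.05 there were 5 of 22 members and 1014 of 13318 genes. With run as a covariate in a fit of all 22 libraries limma again called 0 of 22 members and 0.00% of 13295 genes. The median log2 change was 0.02 over the members and -0.0035 over all genes tested.

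Krt18 was the only member whose ATF1-KO libraries did not overlap the control clones of the run (1 of 22 members, 4.55%, against 1.30% of all genes tested). Its values were 3038, 3636, 4404, 4345 and 4309.7 TPM in ATF1-KO. All 5 lay below the lowest control value of 4578 TPM, with means of 3947 ± 596 (SD, n = 5) and 5017 ± 380 TPM (SD, n = 5), and a log2 change of -0.36 (SE 0.11, adjusted p = 0.598). Its partner Krt8 was at 1036, 1187, 1409, 1532 and 1493 TPM against 1869, 1550, 1433, 1623 and 1553 TPM, 3 of 5 below every control value, with a log2 change of -0.28 (adjusted p = 0.638). Krt20 was at 383, 309, 412, 585 and 413 TPM in ATF1-KO against 306, 383, 248, 300.2 and 285 TPM. The groups overlapped, and the log2 change was 0.45 (adjusted p = 0.611). In such bulk libraries fewer cells that express a gene and less RNA per cell cannot be told apart. The remaining members tested had log2 changes between -0.77 (Twist1) and 0.43 (Cd44), with Krt80, a keratin widely present in epithelia, at 0.07. Krt19 was at 1208, 1009, 1038, 1126 and 1089.6 TPM against 1162, 1092, 993, 1091 and 961 TPM. Its groups overlapped (log2 change 0.05, SE 0.07). Sox4 was at 114, 120.1, 106, 115 and 111 TPM against 126, 111, 91.8, 93.9 and 127 TPM, and its groups overlapped too (log2 change 0.05, SE 0.10). The splicing regulator Esrp1 was at 47.0, 49.5, 53.2, 52.6 and 50.0 TPM against 46.5, 53.2, 65.6, 53.1 and 50.1 TPM. Esrp2 was at 166, 152, 181, 152 and 162 TPM against 133, 179.6, 113, 129 and 155 TPM, and both overlapped between groups.

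In ATF1/CREB1-KO, limma called 0 of 19 members tested, while 0.0715% of the 12579 genes tested were called. At an unadjusted p under 0.05 there was 1 of 19 members and 1199 of 12579 genes. With run entered as a covariate the calls over all genes reached 4.58% of 13295, and again 0 of 22 members. Values of the 2 groups did not overlap for 4 of 19 members (21.1%), near the 19.0% over all genes tested. These were Jup, Esrp1 and Sox4, lower in the knockout, and Sox9, higher. The median log2 change over the members was -0.09, and over all genes -0.03.

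Sox4, an SRY-box transcription factor, was at 21.1, 22.4 and 28.0 TPM in ATF1/CREB1-KO and at 31.9, 37.5 and 29.0 TPM in control clones 6 to 8. All 3 knockout libraries were below all 3 controls, with a log2 change of -0.45 (SE 0.21, adjusted p = 0.558). Jup was at 61.2, 70.7 and 46.5 TPM against 79.5, 82.4 and 70.7 TPM, the highest knockout value only just below the lowest control value, with a log2 change of -0.39 (adjusted p = 0.620). Sox9, a factor of tubule progenitors and repair, was at 7.25, 4.65 and 6.38 TPM against 3.55, 4.13 and 3.76 TPM, with a log2 change of 0.54 (SE 0.20, adjusted p = 0.483). Esrp1 was at 11.7, 10.8 and 10.0 TPM against 12.7, 13.4 and 12.1 TPM, and Esrp2, which overlapped between the groups, at 37.5, 19.2 and 22.4 TPM against 25.6, 26.1 and 31.4 TPM. Krt80 overlapped as well (log2 change -0.17).

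Library 3 of ATF1/CREB1-KO stood apart in its keratins. Krt18 was at 839.6, 1070.5 and 2803 TPM in the 3 libraries, Krt19 at 149.7, 192 and 716 TPM, and Krt8 at 193, 277 and 492 TPM. Libraries 1 and 2 were below every control clone of the run for these 3 genes and library 3 was above every one, where Krt19 was at 291, 297 and 286 TPM and Krt8 at 342, 339 and 344 TPM. The keratin share of all TPM was 0.143, 0.191 and 0.465% in the 3 libraries and 0.233 to 0.239% in control clones 6 to 8. Ribosomal protein genes took 12.7, 12.2 and 6.95% of TPM in the same 3 libraries, and the part of this in the keratin values was not tested. Without library 3 the log2 change of Krt19 went from -0.09 to -0.78 (adjusted p = 0.0758), that of Krt18 from -0.05 to -0.57 (adjusted p = 0.102) and that of Krt8 from -0.20 to -0.56 (adjusted p = 0.163), and 60 rather than 9 genes of the whole table were called. Krt20 did not follow: its values were 39.7, 135 and 213 TPM against 72.2, 85.8 and 76.0 TPM, on both sides of the controls.

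In ATF1/CREB1/CREM-KO, Sox4, Krt8 and Krt19 fell and Krt20 rose against control clones 9 to 11. These 4 of 23 members tested (17.4%) were called, against 9.17% of the 13258 genes tested. By direction, 1 member was called higher (3.91% of all genes) and 3 lower (5.26% of all genes). With run as a covariate across the 22 libraries, which gives all groups 1 shared spread, Sox4 alone of the 22 members was called (8.02% of 13295 genes). Values of the 2 groups did not overlap for 11 of 23 members (47.8%), against 34.6% over all genes tested, 3 of them higher in the knockout and 8 lower. The median log2 change was 0.02 over the members and -0.05 over all genes tested.

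Sox4 was at 32.2, 37.9 and 39.9 TPM in ATF1/CREB1/CREM-KO and at 66.1, 86.7 and 72.3 TPM in control clones 9 to 11. All knockout libraries were below all controls, at 48.9% of the control mean, with means of 36.7 ± 4.01 and 75.1 ± 10.5 TPM (SD, n = 3 each). The log2 change was -1.01 (SE 0.13, adjusted p = 0.00903), and with run as a covariate the adjusted p was 1.63e-04. Sox4 was called under all 10 alternative settings tried for this comparison.

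Krt8 was at 874, 990.3 and 957 TPM in the knockout and at 1432, 1288 and 1557 TPM in the controls, 66.0% of the control mean. Krt19 was at 530.1, 679 and 636 TPM against 958, 974 and 1078 TPM, 61.3% of the control mean. For both genes every knockout library lay below every control. The log2 change was -0.60 (SE 0.10, adjusted p = 0.0173) for Krt8 and -0.71 (SE 0.11, adjusted p = 0.0152) for Krt19. Krt20, the keratin of intestinal and urothelial surface cells, was at 682, 750.2 and 675 TPM in the knockout and at 395, 456 and 408 TPM in the controls, all above and at 167% of the control mean. Its log2 change was 0.74 (SE 0.09, adjusted p = 0.00673). With run as a covariate limma called none of these 3 keratins (adjusted p = 0.112 for Krt8, 0.220 for Krt19 and 0.245 for Krt20). The fold changes are the same there. The spread is that of all 22 libraries, including ATF1/CREB1-KO library 3, whose part in the lost calls was not tested.

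The other main keratins of ATF1/CREB1/CREM-KO did not pass the test. Krt18, at 2585, 3797 and 3396 TPM against 4797, 4180.1 and 5162 TPM, was below all controls in every library, with a log2 change of -0.54 (SE 0.16, adjusted p = 0.0837). Krt7 overlapped fully, at 536, 794 and 750.0 TPM against 697, 587 and 776 TPM, with a log2 change of 0.00 (SE 0.17). Krt80 (0.13) and Krt10 (-0.24) overlapped too, as did Krt4 (0.13), which entered the test only in this comparison. The keratin genes together took 0.526, 0.709 and 0.650% of TPM in the knockout and 0.839, 0.757 and 0.909% in control clones 9 to 11.

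**Figure D2:**
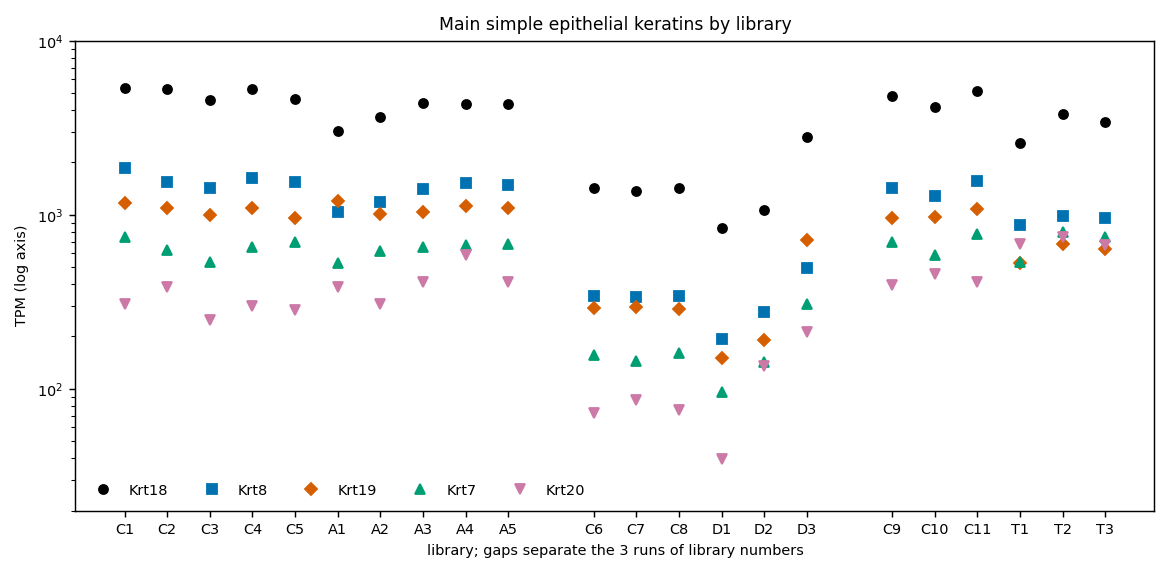
Each point is the TPM (log axis) of 1 of 5 keratins in 1 library, with libraries along the horizontal axis (C control clone, A ATF1-KO, D ATF1/CREB1-KO, T ATF1/CREB1/CREM-KO, with replicate numbers) and gaps between the 3 runs. In T1 to T3 Krt20 (675 to 750.2 TPM) lies above Krt19 (530.1 to 679 TPM), whereas in C9 to C11 Krt19 (958 to 1078 TPM) lies above Krt20 (395 to 456 TPM), and D3 stands above D1 and D2 for all 5 genes.

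Library 1 of ATF1/CREB1/CREM-KO differed from libraries 2 and 3 in several members. Krt23 was at 2.88, 46.4 and 44.7 TPM in the 3 libraries against 52.4 to 70.9 TPM in the controls. Cdh2 was at 1.31, 9.35 and 10.8 TPM against 0.84 to 1.60 TPM, so that only libraries 2 and 3 were above the controls. Pkp1 was at 11.4, 2.79 and 3.58 TPM against 1.82 to 2.43 TPM, and Twist1 was listed at 0 in library 1 and at 3.73 and 5.40 TPM in the other two against 0.96 to 2.29 TPM. None of these passed the test (Cdh2 log2 change 1.53, SE 0.61, adjusted p = 0.171). Without library 1, 9 members were called in place of 4, Cdh2 (2.28, adjusted p = 0.00142), Dsp (0.35, adjusted p = 0.0166), Pkp2 (0.33, adjusted p = 0.0372), Jup (-0.22, adjusted p = 0.0403) and Krt18 (-0.39, adjusted p = 0.0424) being added, and 3317 in place of 1216 genes of the table were called. Leaving out a control clone or library 2 or 3 lowered the counts instead. Krt8 lost its call without control clone 9 (adjusted p = 0.0870), control clone 11 (0.0707), library 2 (0.0557), library 3 (0.0633) or the filter on low genes (0.0664). Krt19 lost it without control clone 9 (0.0692), 10 (0.0546) or 11 (0.0706) or library 3 (0.0526). Sox4 and Krt20 kept theirs in each of these 6 fits.

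Desmosomal plaque genes were not called in any of the 3 comparisons with all libraries. In ATF1/CREB1/CREM-KO, Jup was at 392, 362 and 370.1 TPM against 418, 445 and 422 TPM, without overlap, and the log2 change was -0.19 (SE 0.07, adjusted p = 0.148). Dsp, Pkp2 and Pkp3 overlapped, with log2 changes of 0.11, 0.10 and 0.02. Of the splicing regulators, Esrp1 was at 47.4, 48.8 and 50.6 TPM against 56.8, 56.6 and 52.2 TPM, without overlap, with a log2 change of -0.17 (SE 0.08, adjusted p = 0.240). Esrp2 was at 228, 150.5 and 136 TPM against 166, 146 and 182 TPM, which overlapped (log2 change 0.02). Tagln, an actin-binding protein of smooth muscle, was low in all libraries of the run, at 0.29, 0.12 and 0.59 TPM against 0.62, 3.40 and 1.10 TPM. Its groups did not overlap, and the log2 change was -0.90 (SE 0.42, adjusted p = 0.221). S100a4 was level at 44.2, 40.1 and 44.0 TPM against 36.9, 35.0 and 46.2 TPM. Cd44, the hyaluronan receptor, was at 15.7, 10.6 and 11.2 TPM against 9.12, 10.3 and 7.72 TPM, all above the controls (log2 change 0.41, adjusted p = 0.217), and Sox9 overlapped.

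**Figure D3:**
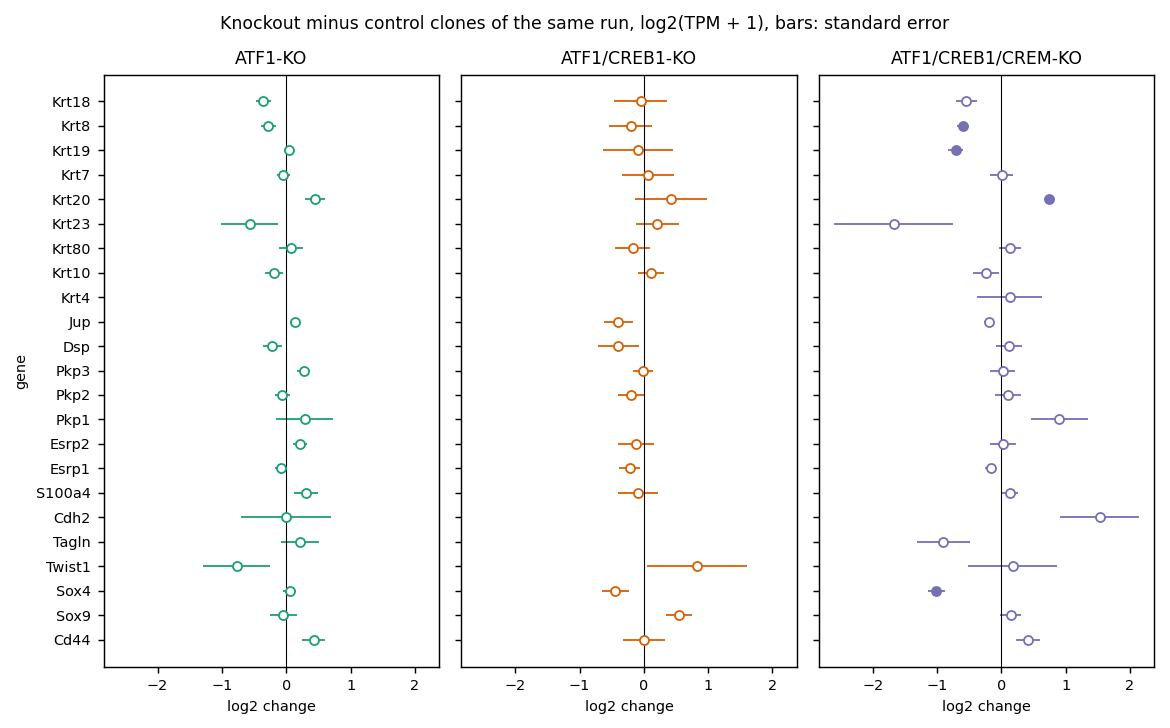
Points are log2 changes of TPM + 1, knockout minus the control clones of the same run, with bars of 1 standard error, for each member tested in each of the 3 comparisons. Filled points passed an adjusted p of 0.05. Only Krt8, Krt19 and Sox4 (lower) and Krt20 (higher) are filled, all in ATF1/CREB1/CREM-KO, and the widest bar is that of Krt23 there.

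Whether a change differed between knockouts was tested as the difference of the own-run changes in 1 limma fit over all 22 libraries, in which the comparisons share no control libraries. Sox4 changed more in ATF1/CREB1/CREM-KO than in ATF1-KO, by -1.07 on the log2 scale (SE 0.19, adjusted p = 0.00216), and was the 1 member of 22 for which that difference was called (3.57% of 13295 genes). Against ATF1/CREB1-KO the difference of Sox4 was -0.57 (adjusted p = 0.447), and 0 of 22 members were called (0.188% of genes). At an unadjusted p under 0.05 there were 1 of 22 members and 1115 of 13295 genes. Between ATF1/CREB1-KO and ATF1-KO, 0 of 22 members were called (1.46% of genes), with Jup the nearest at -0.53 (SE 0.16, adjusted p = 0.0990). Here 2 of 22 members and 2066 of 13295 genes had an unadjusted p under 0.05. The keratins that were called in ATF1/CREB1/CREM-KO were thus not shown to change there more than in the other knockouts.

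The balance among the 5 main keratins was compared as ratios within each library. The ratios were chosen after the values had been seen, so no test is given. Krt20 was at 0.264, 0.198 and 0.199 of Krt18 in ATF1/CREB1/CREM-KO and at 0.0822, 0.109 and 0.0791 in control clones 9 to 11. In ATF1-KO it was at 0.0848 to 0.135 of Krt18 and in control clones 1 to 5 at 0.0541 to 0.0724. In neither comparison did the groups overlap, whereas ATF1/CREB1-KO (0.0473, 0.126 and 0.0759) lay on both sides of its controls (0.0503 to 0.0625). Krt19 was at 0.988, 0.855 and 0.848 of Krt7 in ATF1/CREB1/CREM-KO and at 1.38 to 1.66 in its controls. The order of the 5 genes seen in all controls held in 6 of 11 knockout libraries: in all 3 libraries of ATF1/CREB1/CREM-KO Krt19 was the lowest of the 5, and in 1 library each of ATF1-KO and ATF1/CREB1-KO Krt19 was above Krt8. Krt18 was at 2.84 to 3.83 of Krt8 in all libraries outside the second run, and at 4.05 to 4.19 in control clones 6 to 8.

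**Figure D4:**
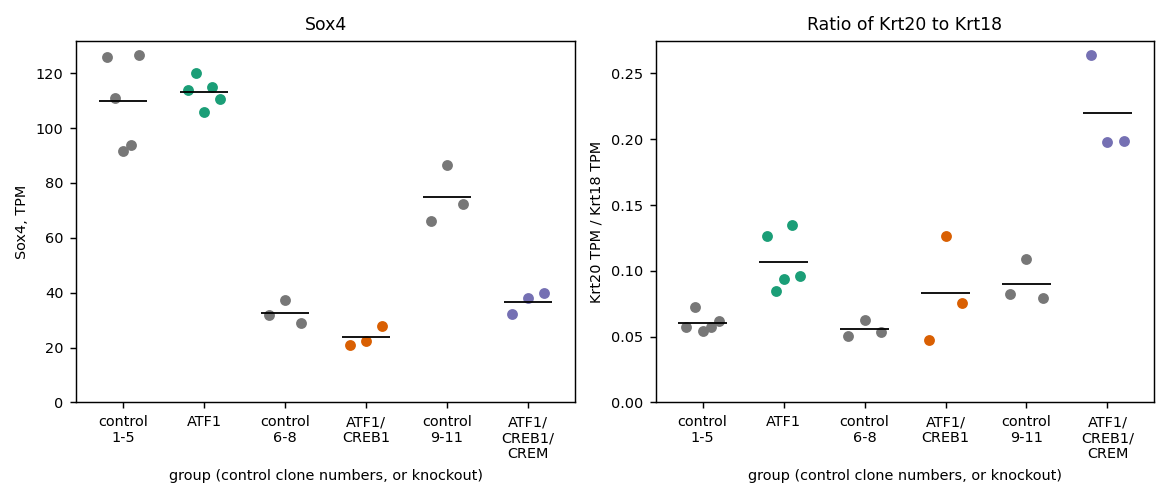
Left, Sox4 in TPM; right, the ratio of Krt20 to Krt18 TPM; each point is 1 library and each line the mean of its group, in the order of the 3 runs. ATF1/CREB1/CREM-KO lies below control clones 9 to 11 for Sox4 (32.2 to 39.9 against 66.1 to 86.7 TPM) and above them for the ratio (0.198 to 0.264 against 0.0791 to 0.109).

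Other genes of the epithelial state moved in both directions in ATF1/CREB1/CREM-KO. Of 26 such genes that are not members, 25 were tested and 5 called, 3 higher and 2 lower, where 9.17% of all genes tested were called. Among them Cdh16 and Cdh1 rose and Elf3 and Mal2 fell. Cdh16, kidney-specific cadherin, was at 2659 ± 549 TPM against 1514 ± 34.7 TPM (SD, n = 3 each; log2 change 0.79, adjusted p = 0.0304). Elf3, an epithelial ETS factor, was at 239.9 ± 30.8 TPM against 383 ± 25.9 TPM (-0.68, adjusted p = 0.0168). Cdh1, E-cadherin, named after its values were seen, was at 1245 ± 39.0 TPM against 818 ± 32.4 TPM (0.61, adjusted p = 0.00689), and it was called under all 10 alternative settings. Mal2, a sorting protein of the apical membrane, also named after its values were seen, was at 1047 ± 104 TPM against 1594 ± 177 TPM (-0.60, adjusted p = 0.0277). All 4 were also called with run as a covariate. Without control clone 9, Cdh16, Elf3 and Mal2 were not called (adjusted p = 0.121, 0.0806 and 0.113), nor were they without control clone 11 (0.102, 0.0764 and 0.0535) or library 2 (0.0980, 0.0665 and 0.0902). Cdh16, Elf3 and Mal2 were not called without library 3 (0.0962, 0.0654 and 0.0576), and Cdh16 and Mal2 were not called without control clone 10 (0.0951 and 0.0890). Without the filter on low genes Cdh16 and Mal2 were not called (0.102 and 0.0913).

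Of 20 other genes of desmosomes and keratin linkers, 12 were tested in ATF1/CREB1/CREM-KO and 1 was called, a share near the 9.17% over all genes tested. It was Dsc2, a desmosomal cadherin, which went from 27.9 ± 2.80 to 46.8 ± 9.47 TPM (SD, n = 3 each; log2 change 0.71, adjusted p = 0.0490). Its call was lost without any 1 library other than library 1 (adjusted p between 0.0967 and 0.158) or without the filter on low genes (0.0947), and held with run as a covariate (0.0112). Of 31 other genes of the mesenchymal state, 12 were tested and limma called 0. At an unadjusted p under 0.05 there were 4 of these 12, and 3582 of the 13258 genes tested. In ATF1-KO none of the 25 epithelial, 12 desmosomal and 12 mesenchymal genes tested was called, with 2, 1 and 2 at an unadjusted p under 0.05. In ATF1/CREB1-KO none of 25, 12 and 8 was called, with 2, 1 and 0 at an unadjusted p under 0.05, and Mal2 (460 TPM against 271 TPM in the controls on average) was called with run as a covariate (log2 change 0.71, adjusted p = 0.0199), opposite in direction to ATF1/CREB1/CREM-KO.

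Some other measures separated ATF1/CREB1/CREM-KO from control clones 9 to 11, and others overlapped. The 10 principal cell markers summed to 1287, 710.5 and 738 TPM in the 3 knockout libraries, below the 1345 to 3107 TPM in the controls. Aqp2, of that list, lay between 15.1 and 2351 TPM over the 22 libraries. Mitochondrial transcripts took 2.63, 2.06 and 2.25% of TPM against 1.21 to 1.42%, without overlap. Ribosomal protein genes took 3.21, 3.10 and 3.01% of TPM against 3.53 to 4.02%, also without overlap. The 4 markers of thick ascending limb and distal tubule summed to 4.4, 1.96 and 1.98 TPM against 0.04 to 0.14 TPM, without overlap. Of these, Slc12a3 reached 4.4 TPM over the 22 libraries, while Slc12a1, Umod and Pvalb stayed at or below 0.69 TPM. The 5 proximal tubule markers summed to 25.4, 1.38 and 1.80 TPM, on both sides of the 20.0 to 21.6 TPM in the controls. Lrp2 alone reached 25.2 TPM over the 22 libraries, and the rest of that list at most 0.25 TPM. The 5 urothelial markers summed to 329 to 662 TPM against 439.6 to 571 TPM, which overlapped. Upk1a alone reached 657 TPM over the 22 libraries, and the others at most 14.3 TPM. The 5 leukocyte markers, of which Adgre1 and Lyz2 were at 0, summed to 6.11, 48.3 and 51.3 TPM. These sums lay on both sides of the 18.4 to 19.8 TPM in the controls, and Csf1r alone reached 47.95 TPM over the 22 libraries. The 7 fibroblast markers summed to at most 1.95 TPM and the 5 endothelial markers to at most 0.14 TPM in these libraries. The part of these measures in the changes of Sox4 and the keratins was not tested.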

How the data were processed

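RNA was reverse transcribed and amplified with a SMARTer V4 Ultra Low kit, tagmented with Nextera XT and sequenced from both ends, per the labels' protocols. The submitters' processing notes name STAR and RSEM; versions, genome build and annotation are not given in the sources used here. The deposited values are TPM per gene, computed by the authors, so depth per library is unknown, no counting interval is given, and a value of 0 can be a gene without reads or a failed estimate. No 2 columns were identical.

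Every gene averaging 1 TPM or more in a comparison entered a limma fit (limma 3.58.1, R 4.3.3; eBayes with a variance trend) on log2(TPM + 1), in which each knockout was set against own-run control clones. P-values were adjusted by Benjamini-Hochberg over all genes tested, and a gene was called under 0.05. Fold changes on this scale understate those of low genes. Differences between knockouts were contrasts in 1 fit of the 6 groups. Alternatives were run as a covariate, a pseudocount of 0.1, no filter, median-ratio scaling, a replicate block and leaving out each library.

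Named were all members averaging 1 TPM or more in a comparison, with every library's value for called members, the 3 most abundant keratins and the splicing regulators, and up to 4 called genes of each comparison from 3 further lists, of which 1 gene is not reported here. Members and lists were chosen with earlier results of these data known. Upstream windows and their coordinates are from RefSeq on GRCm38.p6, cut to 250 bases before each start.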

Additional observations from a re-analysis of the deposited data

Results flagged for a closer look

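The log2 change of Sox4 differed between knockouts in a direct test: it was -1.01 in ATF1/CREB1/CREM-KO and 0.05 in ATF1-KO, each against own-run control clones, a difference of -1.065 (limma, adjusted p = 0.00216). All 3 libraries of ATF1/CREB1/CREM-KO were below their controls, while the 5 libraries of ATF1-KO overlapped theirs. The call held without each of the 22 libraries in turn. The 22 members tested in the run of ATF1-KO gave 44 groups of 5 values, from control clones 1 to 5 and from ATF1-KO. None held a library flagged by a cut on its gap to the nearest value, relative to the range of the group. Such a cut can miss a distant library in groups of 5. Krt23 in ATF1-KO, at 20.5, 17.5, 88.9, 38.7 and 26.1 TPM, was not flagged.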

How the results depend on the processing

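The members called in ATF1/CREB1/CREM-KO kept their direction under every alternative run. In ATF1/CREB1/CREM-KO the number of members called was 4, as with a pseudocount of 0.1 and with median-ratio scaling. It was 1 with run as a covariate and between 2 and 9 when 1 library was left out. Without a filter 4 were called, Krt8 being replaced by Krt16, which never exceeded 0.51 TPM. Over all genes the 1216 calls became 710 without a filter and between 185 and 3317 with 1 library left out. Calls toward lower expression made up 57.4% of these 1216 and 46.9% with median-ratio scaling. In ATF1/CREB1-KO 0 members were called throughout, and the 9 calls over all genes became 609 with run as a covariate, 18 with median-ratio scaling, 0 without a filter and between 0 and 60 with 1 library left out. In ATF1-KO 0 members were called throughout, and between 0 and 1 genes with 1 library left out. Numbers shared by ATF1-KO and control clones 1 to 5 did not pair the libraries (0 of 5 same-numbered pairs correlated above 0.1 in their deviations, and 1 of 5 knockout libraries correlated best with its own number), and the replicate block gave 0 members and 0 genes. For the differences between knockouts, leaving out each library, an alternative added after the data had been seen, gave between 1 and 2 members for ATF1/CREB1/CREM-KO minus ATF1-KO (Krt19 joining without ATF1/CREB1-KO library 3) and between 0 and 1 for ATF1/CREB1-KO minus ATF1-KO (Jup without library 2, Krt19 without library 3). Unknown depth limits what can be said of members listed below 1 TPM, and groups of 3 libraries limit the calls of Krt8 and Krt19, which were lost without single libraries.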
